A study of Mus musculus with 20 samples.

Results

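Protocadherin genes were followed in the hippocampus of young and aged mice. The members were the genes with at least 1 array probe set listed with exactly 1 symbol that starts with Pcdh, with Pcdhb9 left out and no filter on intensity. They were 34 of the 18193 genes with a probe set of their own, measured by 61 of 34945 such probe sets, and where a gene had several, the one with the highest mean stands for it. Of the 34 genes, 21 belong to the beta cluster, 1 (Pcdhgc4) to the gamma cluster and 12 are non-clustered. No alpha gene had a probe set of its own, and the alpha cluster was read only through 6 probe sets listed with several alpha symbols at once.

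Protocadherins are adhesion molecules of the cadherin superfamily, found mainly in the nervous system. The genes of the alpha, beta and gamma clusters lie side by side on the same chromosome. Alpha and gamma genes join a variable first exon to constant exons shared within the cluster, whereas beta genes have no shared exons. Each neurone switches on its own combination of clustered promoters, with the insulator protein Ctcf and cohesin taking part in the choice, and the combination serves recognition between neurites of the same cell. The non-clustered genes, most of them of the delta families, act in cell sorting, axon growth and synapses, and several delta proteins bind the WAVE complex that drives actin assembly.

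Total RNA of the hippocampus of 20 male mice was hybridised, each sample to its own Affymetrix Mouse Genome 430 2.0 array, with 5 groups of 4 mice. WT_Y were wild-type C57BL/6J mice of 6 months, and KO_Y were mice of the same age homozygous for a targeted disruption of Hsd11b1 (Hsd11b1-/-), congenic on C57BL/6J. WT_AU and WT_AI were wild-type C57BL/6J mice of 24 months classed in the Y-maze, a test of spatial memory, as unimpaired or impaired, and together form WT_A. KO_A were Hsd11b1-/- mice of 24 months. The disruption removes the gene in every tissue, and the study asked which hippocampal transcripts go with age, with memory in old age and with loss of this enzyme, which regenerates active glucocorticoids. Mice are called by their group followed by the number that the labels give them.

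Hsd11b1 read at least 549.6 in every wild-type mouse and at most 65.2 in every Hsd11b1-/- mouse. Markers of tissue next to the hippocampus differed widely between mice. The mean of 7 choroid plexus markers ran from -2.59 in KO_Y-580 to 1.69 in WT_Y-374, on the log2 scale relative to the average mouse. Whether tissue from outside the hippocampus was included was not tested. Mouse WT_Y-374 had the highest reading of Alb, the liver albumin gene (2912), and the lowest mean of 4 dentate granule cell markers in its group (-0.97, on the log2 scale relative to the average mouse). Leaving out mouse KO_A-41 raised the probe sets called in KO_A against KO_Y from 276 to 2054. Both mice are named below where a result rests on them. The tissue was bulk hippocampus, in which fewer cells of a type and less RNA per cell cannot be told apart.

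Levels are normalised chip intensities, which are not proportional to transcript number from one probe set to another, so that they place a gene relative to the background of the array and not relative to other genes. An intensity of 100 in at least 2 of 20 arrays, the study's limit for expression, was reached by 14 of the 34 genes, and 9 of these reached it in all 20 arrays. The other 20 never met it, and 18 had a mean below the lowest array median of 39.4. For these 18 a reading is close to background and the size of any change is uncertain.

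Of the 21 beta genes, 6 reached 100. They were Pcdhb7 with a mean over all mice of 278, Pcdhb20 with 191, Pcdhb3 with 142, Pcdhb16 with 124, Pcdhb17 with 117 and Pcdhb12 with 90.5. Pcdhb12 passed only through 4 arrays, of which 2 were of KO_A and none of young mice. The lowest readings in the cluster were those of Pcdhb18 (8.27) and Pcdhb1 (10.2). Pcdhgc4, a C-type gamma gene needed for the survival of some neurones, read 18.2 to 28.4 and thus stayed near background in every mouse.

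The non-clustered genes held most of the high readings, with 8 of 12 above the limit. Among the delta-1 genes, Pcdh9 had a mean of 1403, Pcdh7 of 418 and Pcdh11x, an X-linked gene, of 119. The delta-2 genes Pcdh8, whose product is induced by synaptic activity, Pcdh17, a gene of presynaptic assembly, Pcdh19, the X-linked gene mutated in an epilepsy of girls, and Pcdh10, a gene of synapse elimination, had means of 1718, 868, 755 and 329. Pcdh20 had a mean of 855. The 4 below the limit were Pcdh18 (52.0), Pcdh15, a gene of the tip links of hair cells (28.5), Pcdh1 (22.4) and Pcdh12, an endothelial gene (17.4).

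**Figure D1:**
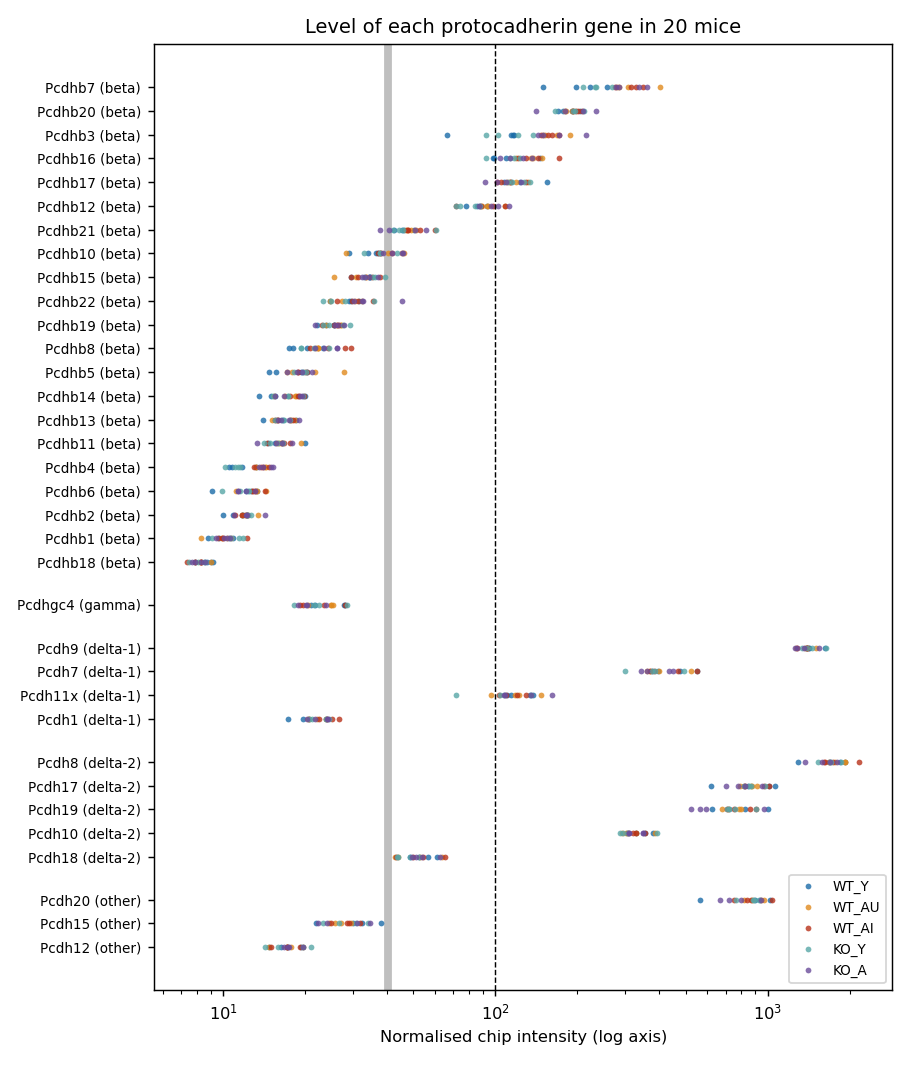
Normalised chip intensity on a log axis of the 34 protocadherin genes, 1 point per mouse coloured by group, ordered by class and mean. The dashed line marks 100 and the grey band the range of array medians, 39.4 to 41.3. The beta genes spread from 8.27 to 278 in their means, with 15 of 21 wholly left of the dashed line, and 8 of the 12 non-clustered genes lie at it or to its right.

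With age, the beta genes Pcdhb3 and Pcdhb7 rose in wild-type mice, and no protocadherin gene of any class was called there as lower. Of the 34 genes, 23 had a log2 fold change above 0 in WT_A against WT_Y, beside 55.2% of all genes. In the wild-type comparison, limma, fitted over all 45037 probe sets, called 2 of the 34 genes at an adjusted p under 0.05, against 0.264% of all probe sets (119, of which 100 were higher). Both lie in the beta cluster, and none of the 12 non-clustered genes nor Pcdhgc4 was called.

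Pcdhb3 read 115.6, 113.9, 116.9 and 66.5 in the WT_Y mice. It read 187.3, 149.9, 168.3 and 152.5 in WT_AU and 155.4, 146.5, 160.8 and 171.4 in WT_AI. All 8 aged wild-type mice thus lay above all 4 young ones, and mouse WT_Y-374 lay well below the other young mice. The means were 103 ± 12.3 in WT_Y (SEM, n = 4), 165 ± 8.62 in WT_AU and 159 ± 5.21 in WT_AI. The log2 fold change of Pcdhb3 in WT_A against WT_Y was 0.68 (SE 0.14, limma adjusted p = 0.0385), with an exact permutation p of 0.00202, the smallest that 8 mice against 4 can give. Without WT_Y-374 it was 0.48 (limma adjusted p = 0.101). Over the leaving out of each of the 20 mice it was 0.48 to 0.75, and the call held in 8 of these 20 fits.

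Pcdhb7 read 256.3, 197.9, 222.9 and 150.0 in WT_Y. In WT_AU it read 284.0, 400.8, 305.6 and 280.5, and in WT_AI 347.6, 314.0, 328.9 and 274.2. Again every aged wild-type mouse was above every young one, although the highest young mouse (WT_Y-369) came near the lowest aged one. The mean rose from 207 ± 22.4 (SEM, n = 4) to 318 ± 28.2 in WT_AU and 316 ± 15.6 in WT_AI. The log2 fold change in WT_A was 0.63 (SE 0.12, limma adjusted p = 0.0251), with an exact permutation p of 0.00202. Over the leaving out of each mouse the change of Pcdhb7 was 0.49 to 0.75. Its call held in 16 of 20 such fits and was lost without WT_Y-371 (0.62, adjusted p = 0.0939), WT_Y-374 (0.49, adjusted p = 0.0861), WT_AI-14 (0.61, adjusted p = 0.0541) or WT_AI-49 (0.62, adjusted p = 0.0519). With only the wild-type groups in the fit, neither Pcdhb3 nor Pcdhb7 was called (limma adjusted p = 0.06 and 0.0908). By the probe sets that stand for the 34 genes, only Pcdhb3 and Pcdhb7 had aged and young wild-type mice that did not overlap, all aged being higher. This pattern was held by 0.779% of all probe sets.

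The gene next to Pcdhb3 along the cluster, Pcdhb4, had the third smallest p in wild-type mice, with a log2 fold change of 0.26 (limma adjusted p = 0.103). The gene next to Pcdhb7, Pcdhb8, had the fourth, with 0.27 (limma adjusted p = 0.395). Neither was called, and both read near background, at most 15.2 and 29.6. The other probe set of Pcdhb4 gave 0.13 (limma adjusted p = 0.806). The beta genes are close copies of each other, and whether their probe sets also bind transcripts of neighbouring copies was not checked.

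In Hsd11b1-/- mice the call in the beta cluster went to Pcdhb4, while Pcdhb3 and Pcdhb7 again separated the ages but were not called. For KO_A against KO_Y, 1 of 34 genes was called, against 0.613% of all probe sets (276, of which 254 were higher). Pcdhb4 read 11.1, 11.5, 10.2 and 11.3 in KO_Y and 14, 15, 15.2 and 13.5 in KO_A. The aged mice were all higher, in a range far below the array medians. The log2 fold change of Pcdhb4 was 0.39 (SE 0.07, limma adjusted p = 0.0155), with an exact permutation p of 0.0286, the smallest that 4 mice against 4 can give. Its other probe set gave 0.14 (limma adjusted p = 0.531). The call was lost without KO_Y-575, KO_Y-580 or KO_A-222 (0.39, 0.35 and 0.36, limma adjusted p = 0.0509, 0.0759 and 0.0748) and with only the Hsd11b1-/- groups in the fit (adjusted p = 0.103).

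Pcdhb3 read 92.0, 120.8, 137.7 and 102.5 in KO_Y and 170.8, 214.1, 143.6 and 149.5 in KO_A. Its mean was 113 ± 10.1 in KO_Y and 170 ± 16 in KO_A (SEM, n = 4), with a log2 fold change of 0.58 (SE 0.16, limma adjusted p = 0.107). Pcdhb7 read 268.7, 233.7, 210.5 and 232.1 in KO_Y and 336.3, 360.4, 276.4 and 284.5 in KO_A. Its log2 fold change was 0.41 (SE 0.14, limma adjusted p = 0.192). Pcdhb3, Pcdhb4 and Pcdhb7 were the 3 members of 34 whose KO_A mice were all higher than the KO_Y mice, where 3.21% of all probe sets had this pattern. Pcdhb12 had the third smallest p, with a log2 fold change of 0.32 (limma adjusted p = 0.184), and its groups overlapped.

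**Figure D2:**
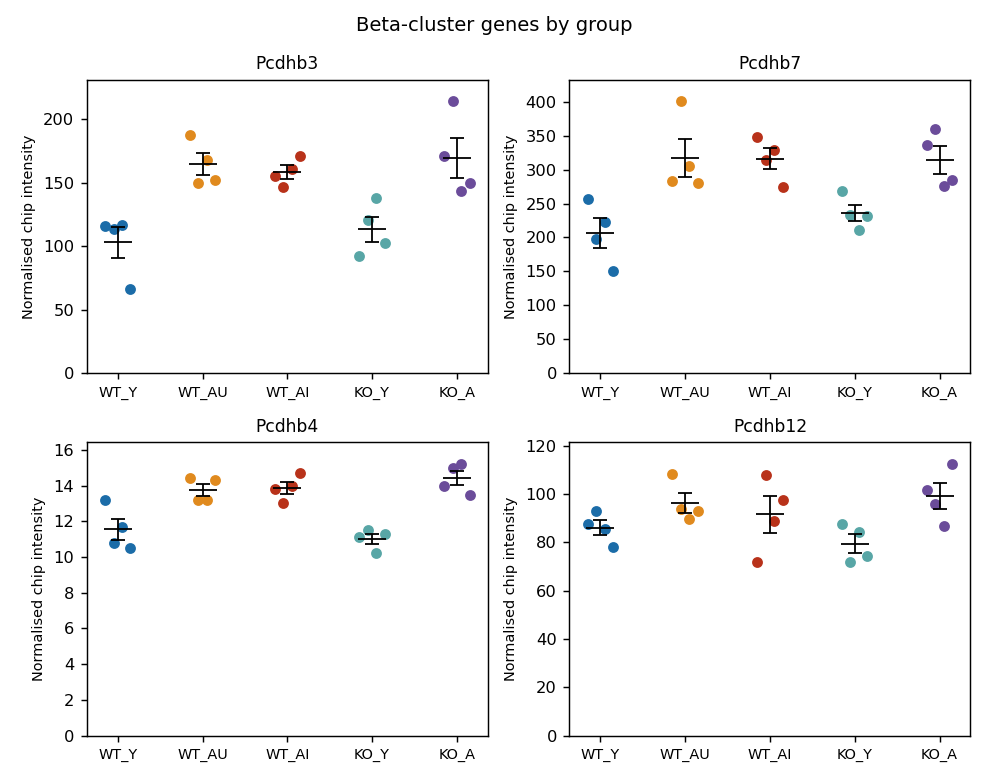
Normalised chip intensity of 4 beta-cluster genes by group, 1 point per mouse, with the mean and SEM of 4 mice as bars. Each axis starts at 0. For Pcdhb3 the young mice reach 137.7 and the aged mice start at 143.6, for Pcdhb7 these limits are 268.7 and 274.2, and for Pcdhb4 and Pcdhb12 young and aged mice overlap.

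The age effects of the 2 genotypes come from different mice and can be averaged. This comparison, age over both genotypes, was chosen after the data were seen. It called 3 of the 34 genes, against 1.26% of all probe sets. They were Pcdhb4 (0.33, limma adjusted p = 0.000694), Pcdhb3 (0.63, limma adjusted p = 0.00276) and Pcdhb7 (0.52, limma adjusted p = 0.00457). The other probe set of Pcdhb4 gave 0.13, and the one that stands for the gene read at most 15.2, near background. For Pcdhb3 and Pcdhb7 all 12 aged mice lay above all 8 young ones, a pattern found in 0.258% of all probe sets. Pcdhb8, with 0.24 (limma adjusted p = 0.123), was not called.

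Tested directly, the age effect in Hsd11b1-/- mice minus that in wild-type mice gave 0 calls among the 34 genes in limma, against 0.0133% of all probe sets. By the probe sets that stand for the genes, no member had an unadjusted p under 0.05, while 4370 of all 45037 probe sets did. The largest difference by these probe sets, in KO relative to WT, was 0.38 for Pcdh11x (SE 0.21, limma adjusted p = 0.573). The call of Pcdhb3 and Pcdhb7 in wild-type mice alone and of Pcdhb4 in Hsd11b1-/- mice alone is therefore not shown to be a difference between genotypes. Probe sets that do not stand for a gene are not covered by these counts. One of Pcdh10 gave -0.21 in WT_A against WT_Y and 0.25 in KO_A against KO_Y (limma adjusted p = 0.375 and 0.16), each at an unadjusted p under 0.05. In this probe set all 8 aged wild-type mice lay below all the young ones, as in 135 of all 45037 probe sets. The difference between its 2 age effects is not reported here. Of the 6 probe sets of Pcdh10, 3 were above 0 in WT_A and 6 in KO_A.

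Along the whole beta cluster, 18 of 21 genes had a log2 fold change above 0 in WT_A against WT_Y, with a median of 0.12. Over 1 probe set per gene of all 18193 genes, 55.2% were above 0 and the median was 0.01. In KO_A against KO_Y 12 of 21 beta genes were above 0, with a median of 0.04, beside 51.6% and a median of 0.01 over all genes. The 12 beta genes above 0 in KO_A were all above 0 in WT_A, 3 were below 0 in both, and 6 differed in sign. The 12 non-clustered genes had medians of -0.04 and -0.02 in these comparisons, with 5 of 12 above 0 in each. Most beta changes are of genes near background, and the members share the same arrays, so that these counts describe the list and carry no test.

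**Figure D3:**
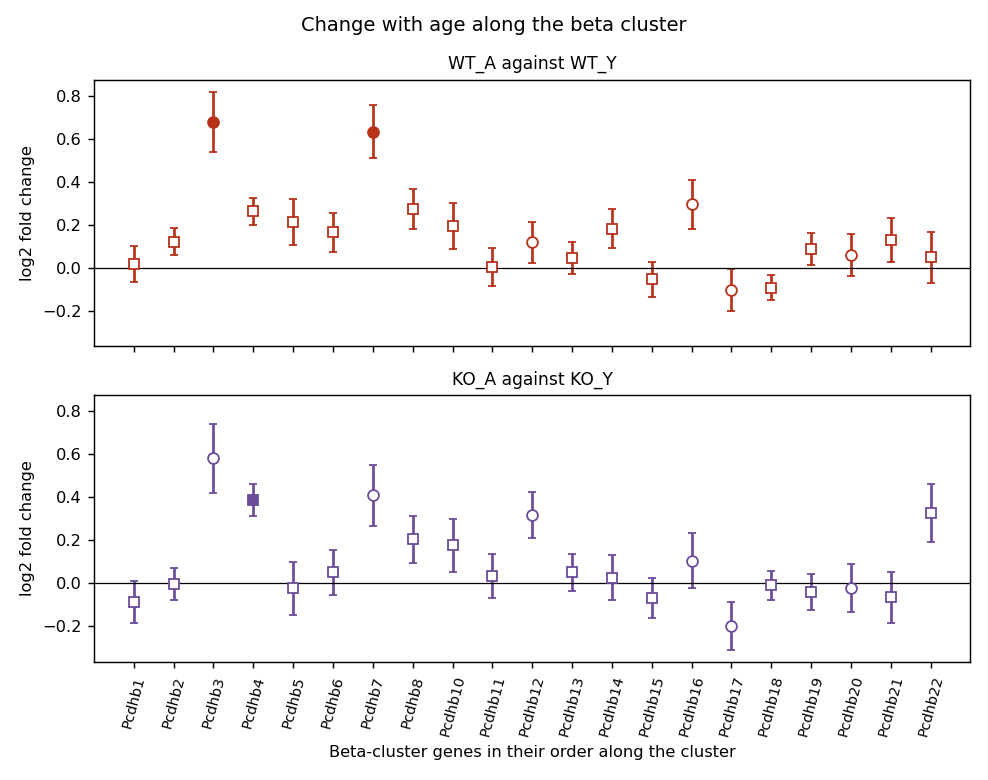
Log2 fold change with age of the 21 beta-cluster genes, in their order along the cluster in the RefSeq annotation of GRCm38.p6, with the SE of the limma fit as bars. Filled symbols were called at an adjusted p under 0.05, circles are genes that reached 100 in at least 2 arrays and squares those that did not. Pcdhb3 and Pcdhb7 stand out in wild-type mice at 0.68 and 0.63, and in Hsd11b1-/- mice Pcdhb3 is at 0.58, Pcdhb7 at 0.41 and Pcdhb4 at 0.39.

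Cell type markers moved with age as well. All 5 microglial markers were higher in aged mice of each genotype, 2 called in WT_A and 3 in KO_A, and their mean, on the log2 scale relative to the average mouse, was -0.36 to -0.08 in young and -0.11 to 0.39 in aged mice. Of the 5 astrocyte markers, 2 were above 0 in WT_A (median -0.03) and 5 in KO_A (median 0.26), with Gfap alone called in each. Of the 4 oligodendrocyte precursor markers, 0 were above 0 in WT_A (median -0.06) and 3 in KO_A (median 0.04), with Gpr17 alone called, as lower, in each. Markers of tissue next to the hippocampus and of neurones are given with the same counts, and limma called none of them. At an unadjusted p under 0.05 were 4 leptomeningeal markers, 2 dentate granule cell markers and 1 interneurone marker (Sst) in WT_A. In KO_A 1 CA field pyramidal cell marker (Wfs1) was. The 2 dentate granule cell markers went opposite ways in WT_A, Tdo2 at -0.48 and C1ql2 at 0.39. Choroid plexus markers had 0 of 7 above 0 in WT_A (median -0.97) and 7 of 7 in KO_A (median 1.03), and leptomeningeal markers 7 of 8 in WT_A (median 0.35) and 3 of 8 in KO_A (median -0.03). Excitatory neurone markers had 2 of 5 above 0 in WT_A and 0 of 5 in KO_A (medians -0.03 and -0.20), and dentate granule cell markers 3 of 4 and 0 of 4 (medians 0.07 and -0.32). CA field pyramidal cell markers had 3 of 5 and 1 of 5 (medians 0.07 and -0.05), and interneurone markers 1 of 5 and 4 of 5 (medians -0.06 and 0.18). Endothelial markers, none called, had 5 of 5 and 1 of 5 (medians 0.07 and -0.08). After group means were subtracted, over the 20 mice and sharing the array of each mouse, the correlation with the microglial mean was -0.03 for Pcdhb3, 0.32 for Pcdhb7 and 0.11 for Pcdhb4. Among the marker lists, Pcdhb7 had its highest correlation with the dentate granule cell mean (0.75), then the excitatory neurone (0.56) and endothelial means (0.49). For Pcdhb3 the highest were those with the interneurone (0.54), dentate granule cell (0.46) and oligodendrocyte precursor means (0.45). For Pcdhb4 it was that with the oligodendrocyte precursor mean (0.42). Mouse WT_Y-374 had the lowest WT_Y readings of Pcdhb3 (66.5) and Pcdhb7 (150.0) and the lowest WT_Y dentate granule cell mean (-0.97). The correlations were not computed without it. The part of cell composition in the rises was not tested. Without the 4 arrays of the highest Alb, WT_Y-369, WT_Y-374, KO_Y-578 and KO_A-42, the 3 genes were still called with age over both genotypes. In WT_A against WT_Y the same fit called 0 of 34 genes, with Pcdhb3 at 0.48 (limma adjusted p = 0.149) and Pcdhb7 at 0.58 (limma adjusted p = 0.0958).

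The alpha cluster was read by 3 probe sets listed with 14 alpha symbols each, with means of 1242, 510 and 206, and by 3 listed with 9 symbols each that stayed below 58. These probe sets cannot be assigned to 1 gene, and they are no members. In WT_A against WT_Y the 3 brighter ones gave log2 fold changes of -0.06, -0.02 and -0.15. In KO_A against KO_Y they gave -0.21, -0.35 and -0.35, each with an unadjusted limma p under 0.05 and none called (adjusted p = 0.222, 0.131 and 0.252). Over all probe sets the median in KO_A against KO_Y was -0.02. Tested directly, the age effect in Hsd11b1-/- mice minus that in wild-type mice was -0.33 to -0.15 for these 3 probe sets. None was called (smallest limma adjusted p = 0.471), so a difference between genotypes is not shown.

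The probe set with the mean of 510 read 607.0, 593.1, 533.4 and 554.4 in KO_Y and 564.4, 457.7, 371.3 and 426.1 in KO_A. Mouse KO_A-41 stood at the level of the young mice and the other 3 aged mice were below all of them. Leaving out KO_A-41 gave a log2 fold change of -0.45 (limma adjusted p = 0.00925) for this probe set, of -0.27 (adjusted p = 0.0453) for the brightest and of -0.46 (adjusted p = 0.0556) for the one with the mean of 206, at 4.56% of all probe sets called. Of the 3 probe sets, 2 passed the threshold in KO_A against KO_Y without this mouse and none with it. The difference between the age effects was not called without this mouse either. It was -0.43, -0.22 and -0.31 in the same order (limma adjusted p = 0.106, 0.311 and 0.401).

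**Figure D4:**
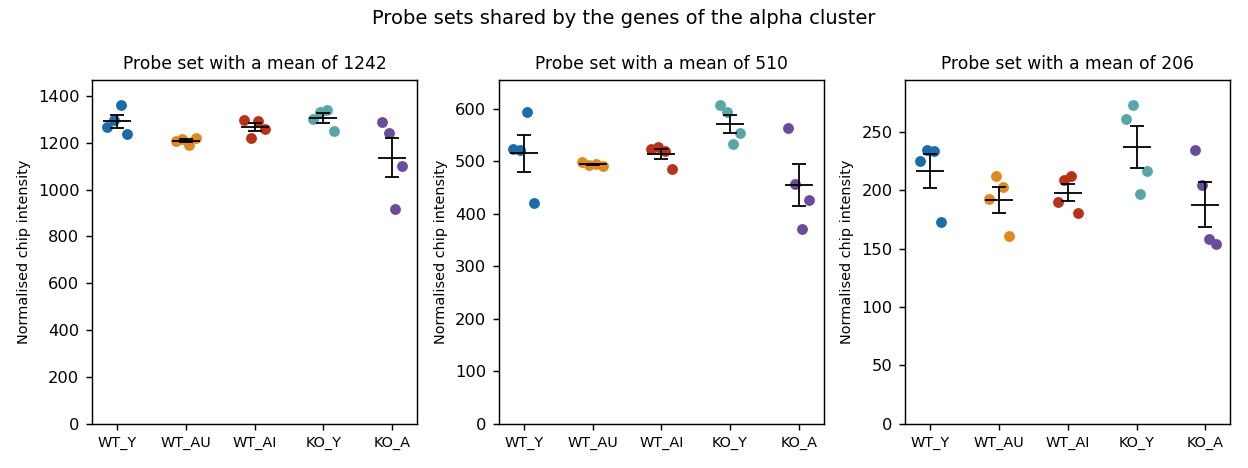
Normalised chip intensity of the 3 probe sets shared by the genes of the alpha cluster, by group, 1 point per mouse, with the mean and SEM of 4 mice as bars and axes from 0. The KO_A mice spread widest, from 371.3 to 564.4 in the middle panel, and the WT_AU mice least in the first and middle panels.

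Among the non-clustered genes, the aged Hsd11b1-/- mice were uneven in Pcdh19. It read 760.0, 901.7, 721.3 and 709.2 in KO_Y and 965.7, 564.2, 521.1 and 594.8 in KO_A, where KO_A-41 was the highest of both groups and the other 3 were the lowest. In wild-type mice it read 718.5, 824.0, 1005.1 and 622.2 in WT_Y, 676.0 to 798.1 in WT_AU and 710.3 to 902.3 in WT_AI. The log2 fold change of Pcdh19 in KO_A against KO_Y was -0.26 (SE 0.16, limma adjusted p = 0.46), and its other 2 probe sets gave -0.25 each. Without KO_A-41 it was -0.46 (limma adjusted p = 0.0468), and the other probe sets gave -0.44 each (adjusted p = 0.0937 and 0.0847). Pcdh11x had a log2 fold change of 0.31 in the same comparison (limma adjusted p = 0.39), with 71.8 to 134.7 in KO_Y and 107.2 to 161.5 in KO_A, and the groups overlapped.

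The other non-clustered genes with high readings were called in no comparison. Pcdh8 had means of 1683 ± 140 in WT_Y, 1823 ± 60.0 in WT_AU, 1781 ± 129 in WT_AI, 1692 ± 65.3 in KO_Y and 1611 ± 90.1 in KO_A (SEM, n = 4). Pcdh17 ranged from 813 ± 51.7 in KO_A to 906 ± 49.5 in WT_AI, and Pcdh20 from 783 ± 60.8 in KO_A to 900 ± 33.7 in WT_AU. Within these groups single mice differed more than the group means did, as in WT_Y, where Pcdh20 read 564.1 in WT_Y-374 and 894.9 to 1017.6 in the other 3.

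**Figure D5:**
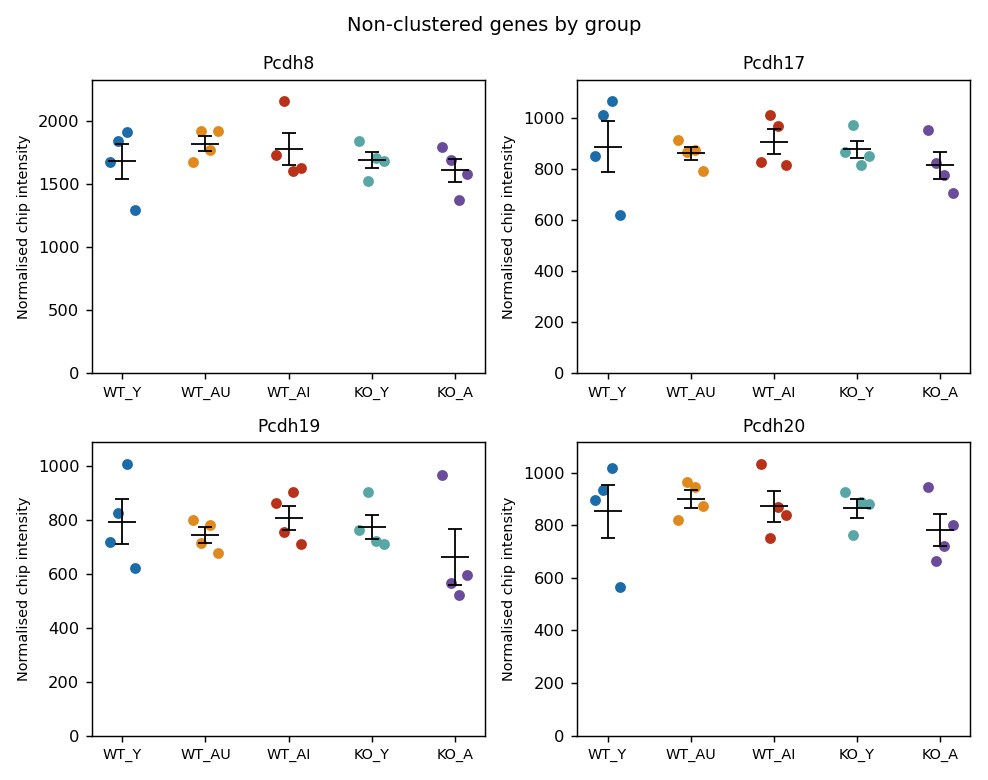
Normalised chip intensity of 4 non-clustered genes by group, 1 point per mouse, with the mean and SEM of 4 mice as bars and axes from 0. WT_Y-374 is the lowest WT_Y mouse in all 4 panels, at 564.1 for Pcdh20, and KO_A-41 is the highest KO_A mouse in all 4, at 965.7 for Pcdh19.

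Between mice of a group, some protocadherins moved together. After subtraction of group means over 20 mice, Pcdhb16 and Pcdhb17, neighbours in the cluster, had a correlation of 0.86, Pcdh10 and Pcdh11x of 0.73 and Pcdh17 and Pcdh19 of 0.73, whereas Pcdh9 and Pcdh20 had -0.66. Pcdhb3 and Pcdhb7, which rose together with age, had only 0.36. Pcdh20 followed the means of the excitatory neurone, dentate granule cell and CA field markers (0.80, 0.80 and 0.74), Pcdh11x that of the interneurone markers (0.78), and Pcdh19 ran against that of the astrocyte markers (-0.74). All these values share the array and dissection of each mouse and are descriptions. By the same measure the genes most like Pcdhb7, of 9888 compared, were Bod1l (0.91), Chd4 (0.87) and Lmo2 (0.86), those most like Pcdhb3 were Klhl8 (0.87), 1810030O07Rik (0.86) and Yipf4 (0.85), and those most like Pcdhb4 were Macir (0.80), Pak2 (0.77) and Dync2li1 (0.77).

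Genotype moved no protocadherin gene past the threshold. In young mice, KO_Y against WT_Y, limma called 0 of 34 genes and 0.0488% of all probe sets. At an unadjusted p under 0.05 were 2381 of all 45037 probe sets and 1 member, Pcdhb2. Its log2 fold change was 0.16 (limma adjusted p = 0.93), with means of 12.4 ± 0.118 in KO_Y and 11.1 ± 0.418 in WT_Y, near background. In aged mice, KO_A against WT_A, limma called 0 of 34 and 0.0111% of all probe sets. No member had an unadjusted p under 0.05, and 4948 of all 45037 probe sets did. The smallest p were those of Pcdhb22 (0.23, limma adjusted p = 0.476) and Pcdh19 (-0.27, limma adjusted p = 0.48). Without KO_A-41, Pcdh19 alone among the members was called, at -0.46 (limma adjusted p = 0.0473), when 1.52% of all probe sets were.

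Memory status in old age separated no protocadherin either. In WT_AI against WT_AU limma called 0 of 34 genes and 0% of all probe sets, no member had an unadjusted p under 0.05, and 959 of all 45037 probe sets did. The smallest p were those of Pcdh1 (0.17, limma adjusted p = 1) and Pcdhb8 (0.20, limma adjusted p = 1), both near background. Pcdhb3 and Pcdhb7, which rose with age, differed by less than their spread between WT_AU and WT_AI.

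The partners of the protocadherins were read from 3 lists. Of 12 regulators of promoter choice and chromatin in the clusters, among them Ctcf and the cohesin genes, limma called none with age in WT_A or in KO_A, and 0 and 1 had an unadjusted p under 0.05. The 1 was Rad21, a cohesin subunit (0.20 in KO_A, limma adjusted p = 0.303). Of 11 measured genes of intracellular partners, such as the WAVE complex, limma called none, and 0 and 2 had an unadjusted p under 0.05. The 2 went opposite ways in KO_A, Nckap1, a WAVE complex subunit, at -0.17 and Taok2 at 0.20 (limma adjusted p = 0.288 and 0.296). Of 23 measured other genes of the cadherin superfamily limma called none, and 2 and 5 had an unadjusted p under 0.05, with medians of -0.04 in WT_A and -0.11 in KO_A. Fat1, an atypical cadherin, had -0.28 in WT_A (limma adjusted p = 0.423) and Cdh22 0.37 in KO_A (limma adjusted p = 0.106). In KO_A 3 of these 23 genes were above 0, beside 51.6% of all genes.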

How the data were processed

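Using affy and R 2.8.0, as named in the submitters' processing notes, the authors deposited intensities after background subtraction and normalisation of all 20 arrays by the robust multichip average. The array medians lie at 39.4 to 41.3, and equal distributions hide any change common to all transcripts. The deposited intensity is linear and was turned to log2 here. Probe set symbols are those of GEO's platform table. Across 5 groups, all 45037 probe sets entered a fit in limma 3.58.1 (R 4.3.3) with 1 estimate of the spread. p-values were two-sided, adjusted by Benjamini-Hochberg, and a call is an adjusted p under 0.05. The methods' limit (100 in 2 arrays) was an alternative, since members were taken at any level. Exact permutation tests were two-sided, on log2 means of the groups compared. Rank products, also named in the methods, were not run. The fit was tested on simulated data. Named were members called, the 4 of the smallest p and those without overlap, and 2 to 3 genes of each class and list. The members and lists were chosen with earlier results of these data known. Alternatives were the filter, groups compared alone, array weights, prior variance by level, centring, means of a gene's probe sets and leaving out each mouse. Age over both genotypes, and leaving out the 4 arrays highest in Alb, were chosen after seeing the data. Tables and figures used pandas 2.3.3, numpy 2.4.6, matplotlib 3.10.9 and Python 3.11.15. The number of arrays limits precision. Mouse numbers differ between groups and pair no mice.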

Additional observations from a re-analysis of the deposited data

Results flagged for a closer look

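In 15 genes (the 14 that reached 100, and Pcdhb4) each group of 4 mice was checked for a mouse far from the others, 75 groups in all. A mouse stood apart in 2 of them, where chance alone would flag about 1 group in 20 if the groups were independent. The genes share the same 20 mice, so the count of 2 cannot be set against chance. Pcdhb3 read 66.5 in mouse WT_Y-374, with the other WT_Y mice at 113.9 to 116.9. Pcdh9 read 1280 in mouse WT_AI-14, with the other WT_AI mice at 1391.8 to 1397.9, a group that is otherwise narrow.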

How the results depend on the processing

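With age over both genotypes, Pcdhb3, Pcdhb4 and Pcdhb7 were called under every alternative in which they were tested, Pcdhb4 not being tested under the filter at 100. The log2 fold changes ranged from 0.49 to 0.68 for Pcdhb3 (limma adjusted p = 0.00183 to 0.0119), from 0.23 to 0.36 for Pcdhb4 (0.000255 to 0.0155) and from 0.45 to 0.58 for Pcdhb7 (0.00167 to 0.025). The calls within a genotype were less stable. In WT_A against WT_Y the 2 calls became 0 with the groups compared alone and without the 4 arrays highest in Alb, and 1 (Pcdhb7) with arrays centred on their median. Leaving out 1 mouse at a time gave 0 to 3, with 0 without WT_Y-371, WT_Y-374, WT_AI-14 or WT_AI-49 and 3, with Pcdhb4, without WT_Y-369. The log2 fold change of Pcdhb3 stayed above 0 in all 27 alternatives (0.48 to 0.75, limma adjusted p = 0.0217 to 0.149) and passed in 12, and that of Pcdhb7 (0.49 to 0.75, adjusted p = 0.0122 to 0.0958) passed in 21. In KO_A against KO_Y the 1 call became 0 under the filter at 100, with the groups compared alone and with the mean of a gene's probe sets, and 0 to 2 without 1 mouse. It was 0 without KO_Y-575, KO_Y-580 or KO_A-222, and 2 without WT_Y-374 (with Pcdhb3) or KO_A-41 (with Pcdh19). Pcdhb4 in KO_A ranged from 0.26 to 0.42 (limma adjusted p = 0.0076 to 0.108). KO_A against WT_A gave 0 to 1 without 1 mouse, the 1 being Pcdh19 without KO_A-41. The counts of 0 in KO_Y against WT_Y, WT_AI against WT_AU and the difference between age effects did not change. In the comparisons that called them, the fold changes of Pcdhb3, Pcdhb4 and Pcdhb7 did not turn their direction under any alternative. The directions of other genes were not followed over all alternatives. The cause of each lost call was not tested. No paired analysis was possible because the mouse numbers in the labels differ between the groups.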
